A study of Saccharomyces cerevisiae with 6 samples.

Results

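A set of 39 genes for the building and work of peroxisomes was compared between 59A *PDR8*-S288c and wild type 59A, among the 6248 features (genes and probes without a gene name) that the array measured. It holds the 24 genes analysed here whose symbol begins with PEX, together with 15 genes given by name: *POX1*, *FOX2*, *POT1*, *ECI1*, *DCI1*, *SPS19*, *TES1*, *FAA2*, *PXA1*, *PXA2*, *ANT1*, *CAT2*, *CRC1*, *OAF1* and *PIP2*. Membership was set by gene name and not by measured values, though the genes were chosen with earlier results of these data known. All 39 were matched to a locus of the RefSeq assembly of *Saccharomyces cerevisiae*, and each was read by 1 probe.

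59A is a haploid of mating type a, derived from the wine yeast EC1118. In 59A *PDR8*-S288c its *PDR8* gene, which encodes a transcription factor of drug resistance, was deleted with an hphMX4 cassette and then replaced by the allele of the laboratory strain S288c. The replacement brought a loxP-kanMX4-loxP resistance cassette in the *PDR8* terminator, whose removal is not described, so effects of the cassette and of the allele cannot be told apart. Wild type 59A carries its own *PDR8* allele and no cassette. For each strain, 3 cultures fermenting glucose and fructose in synthetic grape must, under airlocks that kept oxygen out, were sampled at 66 g/l of CO2 released, which is 70% of fermentation progress, in stationary phase. The must also held oleic acid and ergosterol, at reduced amounts, so oleate had been supplied to both strains. Values are log2 spot-median intensities, on which 5.3 is the background, and they follow the order of the replicate numbers 1 to 3 wherever a sentence lists cultures.

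In yeast, fatty acids are broken down in the peroxisome and in no other compartment. An acyl-CoA is oxidized, hydrated, oxidized again and cleaved by a thiolase, and each round releases an acetyl-CoA that leaves the organelle as acetylcarnitine or through the glyoxylate cycle. The enzymes are made in the cytosol and imported in folded form by receptors that read a targeting signal, PTS1 at the carboxyl end or PTS2 near the amino end. The pathway is known as strongly repressed by glucose and strongly induced by oleate, through Oaf1p and Pip2p, which bind oleate response elements as a pair, and through Adr1p. Peroxins build the import machinery, insert the membrane proteins and set the number and size of the organelles.

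No gene of the set passed an adjusted p under 0.05 from limma between 59A *PDR8*-S288c and wild type 59A, against 1.54% of all 6248 features. None passed an adjusted p under 0.01, against 0.0480% of all features. The lowest adjusted p of the 39 was 0.194, for *PEX28*. The log2 fold changes, taken as 59A *PDR8*-S288c over the wild type, ran from -0.12 for *PEX21* to 0.18 for *PEX7*, a 1.13-fold difference at most. Of the 39 values, 25 were above 0 and 14 below (64.1% above 0, against 53% of all features), and their median was 0.03, against 0.01 over all features. By size alone, the median difference was 0.06 log2 units in the set and 0.07 over all features, while the median SD within a strain was 0.07 in both. By these medians, the differences were typically of the size of the spread between cultures of 1 strain. This does not hold for each single gene: *PEX28* differed by 0.14, with SDs of 0.04 in 59A *PDR8*-S288c and 0.07 in the wild type.

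**Figure D1:**
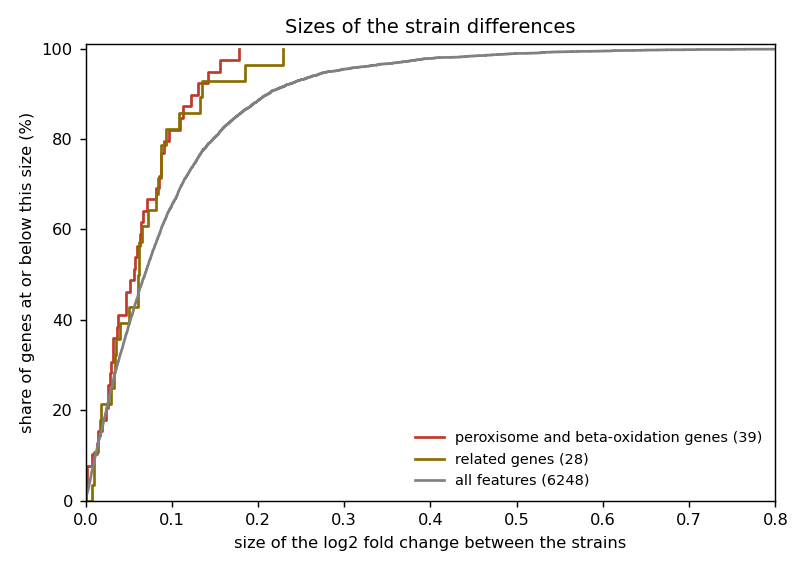
Cumulative share of genes (y axis, %) whose log2 fold change between 59A *PDR8*-S288c and wild type 59A is at or below the size on the x axis (log2 units, sign removed), for the 39 peroxisome and beta-oxidation genes, the 28 related genes and all 6248 features. The set ends at 0.18 and the related genes at 0.23, while the curve of all features runs on, with 9 features beyond the end of the axis at 0.8.

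A miss of the threshold does not show that the strains are alike, and the intervals give what the arrays can say. The 95% intervals of the 39 log2 fold changes reached down to -0.33 and up to 0.41. All 39 lay within 0.5 of 0, a limit chosen after the values were seen, and so did 94.0% of all features. At an unadjusted p under 0.05 from limma there were 2 of the 39 genes (5.13%), *PEX28* and *PEX30*, against 18.1% of all features. Both were higher in 59A *PDR8*-S288c, and 9.99% of all features were at this threshold and higher. Leaving out 1 array at a time changed this count or its genes. Among 59A *PDR8*-S288c cultures, omitting replicate 1 gave 3 (*PEX18*, *PEX28* and *PEX30*, against 16.6% of all features). Omitting replicate 2 gave 0 (12.9%), and replicate 3 likewise 0 (13.3%). Among wild type cultures, omitting replicate 1 gave 3 (*PEX7*, *PEX19* and *PEX28*, 16.1%). Omitting replicate 2 gave 1 (*PEX28*, 17.3%), and replicate 3 gave 2 (*FAA2* and *PEX30*, 18.4%). With wild type replicate 1 or 2 omitted, *PEX30* keeps 1 wild type value, and its log2 fold change was 0.13 in both fits.

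In replicate 3 of the wild type 18 of the 39 genes were not measured, and they therefore compare 3 cultures with 2, while 21 genes have all 6 values. The strains did not overlap in 4 of these 21 genes (19%), against 24.6% of all features with 6 values. They were *PEX7*, *PEX19* and *PEX28*, higher in 59A *PDR8*-S288c, and *PEX11*, lower in it. Among the 18 genes with 5 values, 3 did not overlap (16.7%), against 35.0% of all such features, and *PEX10*, *PEX22* and *PEX30* were all higher in 59A *PDR8*-S288c. An exact permutation test on a single gene cannot give a two-sided p below 0.1 with 3 cultures against 3, or below 0.2 with 3 against 2.

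**Figure D2:**
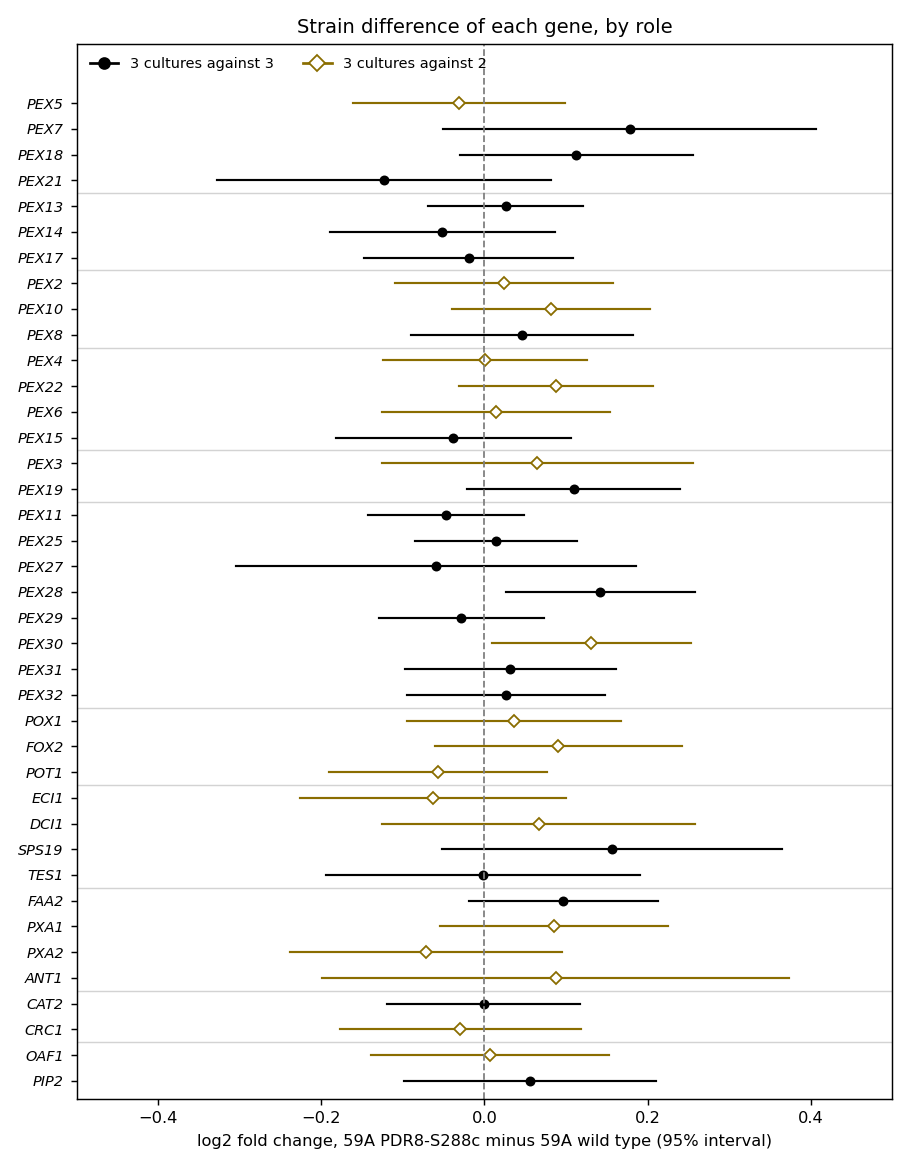
Log2 fold change of each of the 39 genes (x axis, 59A *PDR8*-S288c minus wild type 59A, log2 units), with bars for the 95% interval from limma and thin lines between groups of genes by role. Filled circles compare 3 cultures with 3 and open diamonds 3 with 2. The intervals of *PEX28* and *PEX30* lie above 0 and those of the other 37 genes include it.

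The transcription factors of the oleate response had nearly the same level in both strains. *OAF1* (YAL051W), which encodes the fatty acid sensing partner of the pair, had 9.13, 9.25 and 9.22 in 59A *PDR8*-S288c, against 9.15 and 9.24 in the wild type. Its log2 fold change was 0.01 (SE 0.06, 95% interval -0.14 to 0.15, limma adjusted p = 0.966). *PIP2* (YOR363C), the partner that is itself induced by oleate, had 8.23, 8.18 and 8.41 in 59A *PDR8*-S288c, against 8.16, 8.27 and 8.22 in the wild type. Replicate 3 of 59A *PDR8*-S288c was the highest of the 6, the other 5 cultures overlapped, and the log2 fold change was 0.06 (SE 0.07, limma adjusted p = 0.706). The probes read transcripts and not the activity of these proteins.

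None of the 3 enzymes of the core cycle passed the test, and the intervals of their differences overlapped one another. *POX1* (YGL205W), the acyl-CoA oxidase that takes the first step and passes electrons to oxygen, had 8.78, 8.78 and 8.84 in 59A *PDR8*-S288c, against 8.72 and 8.81 in the wild type. *FOX2* (YKR009C), the multifunctional enzyme that hydrates and oxidizes the product, had 8.67, 8.79 and 8.84 in 59A *PDR8*-S288c, against 8.67 and 8.69 in the wild type. *POT1* (YIL160C), the thiolase that closes the round and a PTS2 cargo, had 9.72, 9.81 and 9.70 in 59A *PDR8*-S288c, against 9.82 and 9.78 in the wild type. All 3 overlapped between the strains, and for *FOX2* the overlap came from replicate 1 of 59A *PDR8*-S288c, which stood level with the wild type. The log2 fold changes were 0.04 for *POX1* (95% interval -0.09 to 0.17), 0.09 for *FOX2* (-0.06 to 0.24) and -0.06 for *POT1* (-0.19 to 0.08). Their adjusted p-values from limma lay between 0.501 and 0.773.

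The 4 auxiliary enzymes ranged in log2 fold change from -0.06 to 0.16. The highest was *SPS19* (YNL202W), the 2,4-dienoyl-CoA reductase for polyunsaturated fatty acids, with 8.32, 8.38 and 8.58 in 59A *PDR8*-S288c, against 8.35, 8.35 and 8.11 in the wild type. The strains overlapped, and the ends of the range were replicate 3 of each strain. Its log2 fold change was 0.16 (SE 0.09, 95% interval -0.05 to 0.36, limma adjusted p = 0.404), and 0.08 without replicate 3 of either strain. *ECI1* (YLR284C), the enoyl-CoA isomerase for unsaturated fatty acids, had 8.36, 8.55 and 8.48 in 59A *PDR8*-S288c, against 8.56 and 8.50 in the wild type (log2 fold change -0.06, SE 0.07, limma adjusted p = 0.670). Without replicate 1 of 59A *PDR8*-S288c, the lowest culture, its log2 fold change was -0.01. *DCI1*, a homologue of *ECI1*, was the dimmest case: its mean lay within 1 log2 unit of the background in both strains, and its log2 fold change was 0.07 (limma adjusted p = 0.709). *TES1*, the peroxisomal acyl-CoA thioesterase, had a log2 fold change that rounded to -0.00 (95% interval -0.19 to 0.19), with the 3 values of 59A *PDR8*-S288c lying inside the range of the wild type.

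Among the genes for entry of fatty acids and ATP into the organelle, the subunits of the fatty acyl-CoA transporter lay on opposite sides of 0. *PXA1* (YPL147W) encodes one ABC half-transporter of the pair and had 8.19, 8.30 and 8.30 in 59A *PDR8*-S288c, against 8.22 and 8.14 in the wild type. *PXA2* (YKL188C) encodes the other and had 7.92, 8.07 and 8.11 in 59A *PDR8*-S288c, against 8.10 and 8.11 in the wild type. In both genes replicate 1 of 59A *PDR8*-S288c was the lowest culture of its strain, and the strains overlapped. The log2 fold change was 0.09 for *PXA1* (SE 0.06, limma adjusted p = 0.497) and -0.07 for *PXA2* (SE 0.07, limma adjusted p = 0.635). It was 0.04 for *PXA1* without replicate 2 of the wild type and -0.01 for *PXA2* without replicate 1 of 59A *PDR8*-S288c. *FAA2*, the peroxisomal synthetase that activates medium-chain fatty acids, had a log2 fold change of 0.10 (SE 0.05, limma adjusted p = 0.350). *ANT1*, the adenine nucleotide carrier that brings ATP in for that step, had one of 0.09 with the widest spread of the 39 genes (SE 0.12, 95% interval -0.20 to 0.37). Its 2 wild type values were 7.64 and 7.29, and its log2 fold change was 0.26 without the first and -0.09 without the second.

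For the carnitine shuttle, through which acetyl units reach the mitochondrion, the 2 genes of the set overlapped between the strains. *CAT2* (YML042W), the carnitine acetyltransferase of peroxisomes and mitochondria, had 9.14, 9.03 and 9.11 in 59A *PDR8*-S288c, against 9.13, 9.12 and 9.03 in the wild type. Its log2 fold change rounded to -0.00 (SE 0.05, 95% interval -0.12 to 0.12, limma adjusted p = 0.995), and the 6 cultures lay within 0.11 log2 units of one another. *CRC1* (YOR100C), the mitochondrial carnitine carrier, had 7.45, 7.30 and 7.34 in 59A *PDR8*-S288c, against 7.39 and 7.39 in the wild type. The wild type values lay inside the range of 59A *PDR8*-S288c, with a log2 fold change of -0.03 (SE 0.06, limma adjusted p = 0.844).

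**Figure D3:**
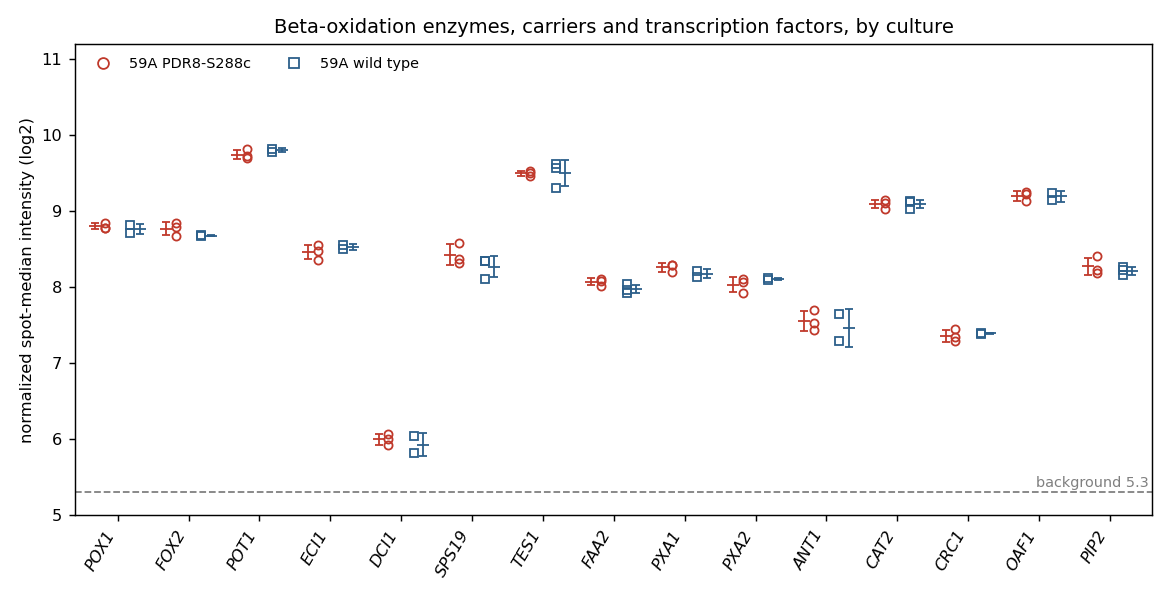
Normalized log2 spot-median intensity (y axis) of the 15 enzyme, carrier and transcription factor genes in each culture, with 59A *PDR8*-S288c as circles left of wild type 59A as squares; beside the points stand the mean and SD of each strain. The dashed line is the background of 5.3, levels of different genes are not comparable because each has its own probe, and for every gene the points of the strains overlap.

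The import receptors held both the highest and the lowest log2 fold change of the set, and both rested largely on 1 wild type culture. *PEX7* (YDR142C), the receptor of PTS2 proteins such as the thiolase, had 8.03, 8.03 and 8.06 in 59A *PDR8*-S288c, against 8.00, 7.97 and 7.62 in the wild type. The strains did not overlap, but 5 cultures were close together and replicate 3 of the wild type stood well below them. The log2 fold change was 0.18 (SE 0.10, 95% interval -0.05 to 0.41, limma adjusted p = 0.388, exact permutation p = 0.1), and 0.05 without that culture. *PEX21* (YGR239C), a coreceptor of Pex7p, had 8.22, 8.04 and 8.05 in 59A *PDR8*-S288c, against 8.19, 8.09 and 8.40 in the wild type. Here the same wild type culture was the highest of the 6, and the log2 fold change of -0.12 (SE 0.09, limma adjusted p = 0.508) was -0.04 without it.

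*PEX18* (YHR160C), the other coreceptor and a near relative of *PEX21* in function, showed a different layout. It had 9.03, 9.22 and 9.22 in 59A *PDR8*-S288c, against 9.04, 9.03 and 9.06 in the wild type. Replicates 2 and 3 of 59A *PDR8*-S288c were above all wild type cultures and replicate 1 was below them, for a log2 fold change of 0.11 (SE 0.06, 95% interval -0.03 to 0.26, limma adjusted p = 0.380), which was 0.18 without replicate 1. *PEX5* (YDR244W), the receptor of the PTS1 signal that most matrix enzymes carry, had 8.62, 8.65 and 8.72 in 59A *PDR8*-S288c, against 8.66 and 8.73 in the wild type. The strains interleaved, with a log2 fold change of -0.03 (SE 0.05, limma adjusted p = 0.808).

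Behind the receptors, the import machinery of the membrane differed little. The docking complex, where loaded receptors arrive, gave log2 fold changes of 0.03 for *PEX13*, -0.05 for *PEX14* and -0.02 for *PEX17*. *PEX14* (YGL153W), the central docking subunit, had 7.57, 7.66 and 7.73 in 59A *PDR8*-S288c, against 7.65, 7.68 and 7.78 in the wild type, with overlap (limma adjusted p = 0.688). The RING ligases that ubiquitinate receptors for their return gave 0.02 for *PEX2* and 0.08 for *PEX10*, and *PEX8*, which bridges them to the docking complex, gave 0.05. *PEX10* (YDR265W) had 8.87, 8.89 and 8.89 in 59A *PDR8*-S288c, against 8.76 and 8.84 in the wild type, without overlap (SE 0.05, limma adjusted p = 0.446). The adjusted p-values of these 6 genes lay between 0.446 and 0.889.

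Receptor recycling uses the ubiquitin-conjugating enzyme Pex4p, held at the membrane by Pex22p, and the ATPase Pex6p, held there by Pex15p. The log2 fold change rounded to 0.00 for *PEX4* (95% interval -0.12 to 0.13) and was 0.01 for *PEX6* and -0.04 for *PEX15*. *PEX22* (YAL055W) was the highest of the 4 at 0.09 (SE 0.05, limma adjusted p = 0.408), with 8.41, 8.44 and 8.43 in 59A *PDR8*-S288c, against 8.37 and 8.30 in the wild type. The strains did not overlap in *PEX22*. In the annotation *PEX22* and *OAF1* are near neighbours with 2 genes between them.

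*PEX3* and *PEX19* are the genes without which yeast forms no peroxisomes, since Pex19p carries membrane proteins to Pex3p for insertion. *PEX19* (YDL065C) had 9.89, 9.96 and 9.90 in 59A *PDR8*-S288c, against 9.88, 9.84 and 9.71 in the wild type. The strains did not overlap, by less than 0.01 log2 units, and the lowest culture was replicate 3 of the wild type. The log2 fold change was 0.11 (SE 0.06, 95% interval -0.02 to 0.24, limma adjusted p = 0.352) and 0.06 without that culture. *PEX3* (YDR329C) had 8.35, 8.49 and 8.54 in 59A *PDR8*-S288c, against 8.31 and 8.48 in the wild type. The cultures of *PEX3* interleaved, with a log2 fold change of 0.06 (SE 0.08, 95% interval -0.13 to 0.26, limma adjusted p = 0.715).

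The 8 peroxins that set the number and size of peroxisomes held the 2 lowest adjusted p-values of the set. *PEX28* (YHR150W), of a family of membrane peroxins that limit the number of the organelles, had 7.38, 7.44 and 7.46 in 59A *PDR8*-S288c, against 7.34, 7.30 and 7.21 in the wild type. Every culture of 59A *PDR8*-S288c was above every wild type culture, and the log2 fold change was 0.14, or 1.10-fold (SE 0.05, 95% interval 0.03 to 0.26, limma adjusted p = 0.194, exact permutation p = 0.1). *PEX30* (YLR324W), a membrane-shaping protein of the endoplasmic reticulum at sites where peroxisomes form, had 10.06, 10.10 and 10.14 in 59A *PDR8*-S288c, against 9.97 and 9.97 in the wild type. The strains were apart here too, with a log2 fold change of 0.13 (SE 0.05, 95% interval 0.01 to 0.25, limma adjusted p = 0.250), resting on 2 wild type cultures. The related peroxins gave -0.03 for *PEX29*, 0.03 for *PEX31* and 0.03 for *PEX32*, with overlap in all 3.

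*PEX11* (YOL147C), which elongates the membrane before division and is among the genes most strongly induced by oleate, was the only gene of the set that was lower in 59A *PDR8*-S288c without overlap. It had 8.82, 8.87 and 8.87 in 59A *PDR8*-S288c, against 8.89, 8.92 and 8.88 in the wild type. The gap between the strains was 0.01 log2 units, and the log2 fold change was -0.05 (SE 0.04, 95% interval -0.14 to 0.05, limma adjusted p = 0.592, exact permutation p = 0.1). Its relatives were *PEX25*, at 0.01, and *PEX27* (YOR193W), which had 6.46, 6.57 and 6.56 in 59A *PDR8*-S288c, against 6.46, 6.45 and 6.85 in the wild type. Replicate 3 of the wild type was the outlying culture of *PEX27*, and the log2 fold change of -0.06 (SE 0.11, limma adjusted p = 0.813) was 0.07 without it.

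**Figure D4:**
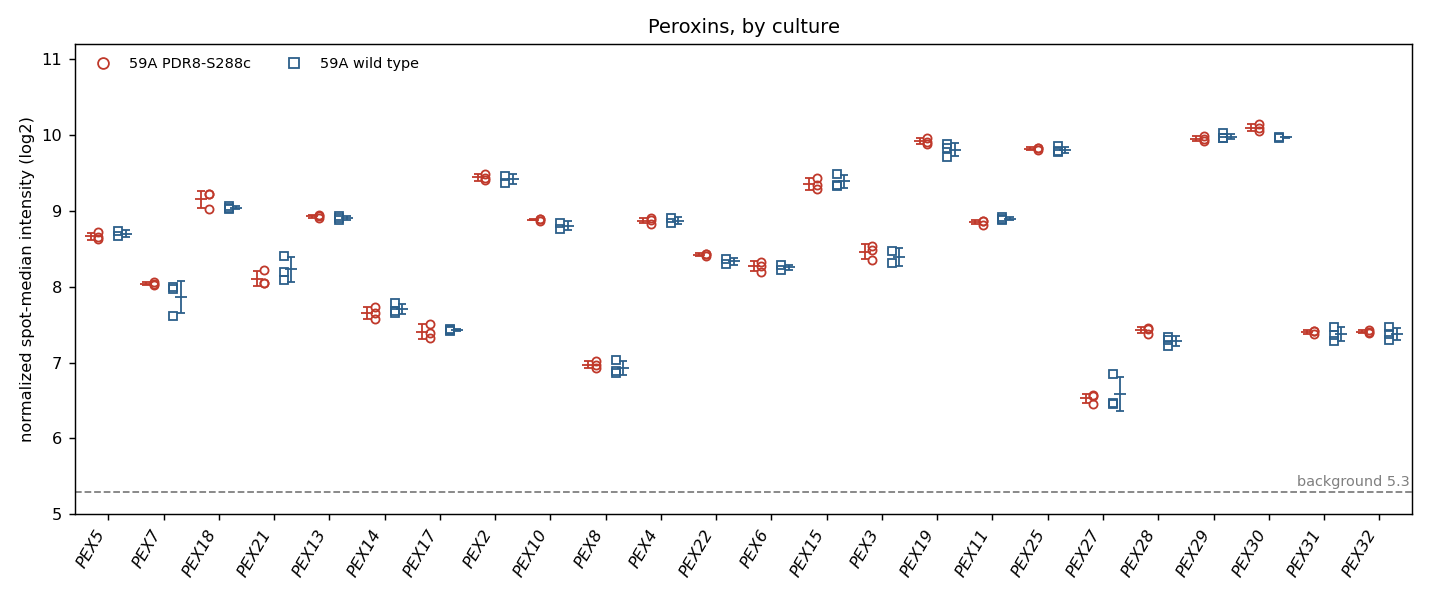
Normalized log2 spot-median intensity (y axis) of the 24 peroxin genes in each culture, with 59A *PDR8*-S288c as circles left of wild type 59A as squares; beside the points stand the mean and SD of each strain. The dashed line is the background of 5.3, levels of different genes are not comparable because each has its own probe, and the wild type points of *PEX7*, *PEX21* and *PEX27* are spread by replicate 3.

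Of 28 further genes of the same pathways that the naming rule leaves out, none passed an adjusted p under 0.05 from limma, against 1.54% of all features. Of the 28, 12 were above 0 (42.9%, against 53% of all features) and 16 below, with a median log2 fold change of -0.02. At an unadjusted p under 0.05 there was 1 of the 28 (3.57%, against 18.1% of all features), *DNM1*, which encodes a dynamin-related GTPase that divides peroxisomes and mitochondria. It had 8.56, 8.55 and 8.54 in 59A *PDR8*-S288c, against 8.46, 8.35 and 8.14 in the wild type, without overlap. Its log2 fold change of 0.23 (SE 0.08, limma adjusted p = 0.186) was the highest of the 28 and was 0.14 without replicate 3 of the wild type. The other division and inheritance genes, *VPS1*, *FIS1*, *INP1* and *INP2*, lay between -0.07 and 0.08.

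Regulators and other matrix enzymes gave the same account. *ADR1*, the activator that is itself held down by glucose, had 8.29, 8.12 and 8.37 in 59A *PDR8*-S288c, against 8.07, 8.18 and 8.12 in the wild type (log2 fold change 0.14, SE 0.07, limma adjusted p = 0.349), with overlap, and its log2 fold change was 0.20 without replicate 2 and 0.08 without replicate 3 of 59A *PDR8*-S288c. *OAF3*, a repressor of the oleate response, had 6.66, 6.74 and 6.60 in 59A *PDR8*-S288c, against 6.74 and 6.72 in the wild type (log2 fold change -0.06, SE 0.06, limma adjusted p = 0.638). *CTA1*, the peroxisomal catalase that removes the hydrogen peroxide made by Pox1p, had 8.83, 8.93 and 9.12 in 59A *PDR8*-S288c, against 8.97, 9.12 and 8.63 in the wild type. The wild type cultures of *CTA1* spanned those of 59A *PDR8*-S288c, and its log2 fold change of 0.05 (SE 0.13, limma adjusted p = 0.876) was -0.09 without replicate 3 of the wild type. The 12 other matrix enzymes, *CTA1* among them, ran from -0.09 for *PNC1* to 0.19 for *CIT2*, the citrate synthase of the glyoxylate cycle, and the 8 genes of acyl-CoA and carnitine use from -0.13 for *FAA1* to 0.09 for *AGP2*.

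Many of these values moved with single cultures. For 22 genes of the set, values by culture were planned, in part because their log2 fold changes were the highest or lowest. Of these 22, the log2 fold change of 20 moved by over 1.5 times without 1 array, and *PEX28* and *PEX30* did not. The share over all features was not counted, and a log2 fold change near 0 passes such a ratio easily. Over the 21 genes with 6 values, the median deviation from the mean of each gene was 0.02, 0.01 and 0.02 log2 units in 59A *PDR8*-S288c, against 0.01, -0.02 and -0.02 in the wild type. These medians did not overlap between the strains, with 0.0141 as the lowest of 59A *PDR8*-S288c and 0.0093 as the highest of the wild type. Their pooled SD within a strain was 0.0118. Over the 4190 features with 6 values the medians were 0.0003, 0.0009 and 0.0061 against -0.0068, 0.0001 and 0.0079, with overlap. This is a description with no test. Of the 21 genes with 6 values, 12 (57.1%) had their highest or lowest value in replicate 3 of the wild type, against 58.3% of the 4190 features with 6 values, so the set shared this with the whole array. In 59A *PDR8*-S288c, replicate 1 was the lowest culture of its strain for 24 of the 39 genes (61.5%), against 41.5% of all features. This count takes in the 18 genes with 5 values, which the medians above leave out. Over the 21 genes with 6 values, the same culture had the highest median deviation, 0.0209. Genes of 1 set in 1 culture are not independent of each other.

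The labels were checked on genes outside the set. *QDR2*, the multidrug transporter that Pdr8p regulates, had 9.84, 9.96 and 9.71 in 59A *PDR8*-S288c, against 7.59, 7.57 and 7.68 in the wild type, and *PDR8* itself was lower, with 6.76, 6.77 and 6.70 against 7.21 and 7.26. Their log2 fold changes were 2.22 (limma adjusted p = 1.41e-05) and -0.49 (limma adjusted p = 0.026), so that shifts of this size were called on the same arrays. All 6 a-specific genes looked at were more than 1 log2 unit above background in all cultures that measured them. The lowest was *ASG7*, between 6.53 and 6.67. Of 4 alpha-specific genes 3 stayed within 1 log2 unit of background, while *SAG1* lay between 7.08 and 7.33, above *ASG7*. All 6 arrays were on slide 1, with 59A *PDR8*-S288c on subarrays 5, 6 and 7 and the wild type on subarrays 1, 2 and 8. The strains thus lay mostly on different parts of the slide.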

How the data were processed

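The authors hybridized labelled RNA to one-colour arrays, scanned them, took the spot-median intensity, quantile-normalized it (limma, R 2.13.1) and deposited log2 values. The descriptions name 3 biological replicates per strain. No further scaling was applied here. Of 6271 probes, 2066 (32.9%) have no value on the wild type replicate 3 array and were fitted with the 5 others. Genes with several probes were represented by the brightest. The strains were compared over all 6248 features by linear models and moderated variances in limma 3.58.1 (R 4.3.3), without a block, with Benjamini-Hochberg adjustment over all of them, and the fit was tested on simulated data. Exact permutation tests used scipy 1.17.1, and figures matplotlib 3.10.9. Gene names were matched to RefSeq R64, for names and order only. The array number, 3 per strain, limits the precision.

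The genes and lists were chosen with earlier results of these data known. Values in each culture were given for genes past an adjusted p under 0.05, the 6 highest and 6 lowest log2 fold changes among genes not near background, 14 fixed genes of the set and *ADR1*, *CTA1* and *OAF3*; *PEX10*, *PEX22*, *DNM1* and the wild type values of *ANT1* were added after they were seen. Alternatives tried were array weights, replicate blocks, the slide position, a trended robust variance, a repeat of the quantile step, centring on medians, the mean of probes, omission of dim or of incomplete features, and omission of each array.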

Additional observations from a re-analysis of the deposited data

How the results depend on the processing

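No gene of the set and no related gene passed an adjusted p under 0.05 from limma under any of 16 alternatives, and the median log2 fold change of the set lay between 0.02 and 0.04. The lowest adjusted p of any of the 39 genes in any setting was 0.158, for *PEX30* with array weights, and their log2 fold changes stayed between -0.19 (*PEX21* without wild type replicate 2) and 0.26 (*ANT1* without wild type replicate 1, which leaves 1 wild type value). The number at an unadjusted p under 0.05, 2 in the report, is given here beside the share of all features in the same fit. It was 1 with median centring (17.8%) and 1 with a trended robust variance (17.6%). With features measured on all arrays it was 1 of the 21 genes left (17.8%), *PEX30* not being among them. The position on the slide gave 1 (*TES1*, 9.52%), in a fit where 1 wild type culture shares the side of 59A *PDR8*-S288c. Array weights gave 3 (*PEX18*, *PEX28* and *PEX30*, 20.2%), and leaving out each array gave 0 to 3 (12.9% to 18.4%).

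Deviations of same-numbered cultures from the mean of their strain correlated at 0.17, 0.34 and -0.43 over 4190 features by the titles. By the numbers of the descriptions they correlated at -0.05, -0.69 and -0.43. Deviations within 3 cultures of a strain depend on one another, so these values cannot show whether cultures were paired. The replicate block left 1 gene of the set at an unadjusted p under 0.05, against 16.8% of all features. With the numbers of the descriptions, which differ from the titles for 2 cultures of 59A *PDR8*-S288c, it left none (0, against 12.1%). Over all features, the block called 19 at an adjusted p under 0.05 by title and 3 by description, the slide position 6, a trended robust variance 152 and array weights 194, against 96 in the report, and leaving out each array 3 to 90.

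Signs near 0 were not stable. Of the 22 genes of the set with planned values by culture, chosen in part by their log2 fold changes, 9 changed sign in some alternative. The share over all features was not counted. With the slide position, the log2 fold change was 0.000793 for *PEX5*, 0.002026 for *PEX14*, 0.06571 for *PEX27* and -0.01614 for *CTA1*. Without a change of sign, the same fit gave 0.03871 for *PEX7* and -0.08347 for *PEX21*, the ends of the range in the report. For *PEX28* and *PEX30* this fit gave 0.08517 and 0.1303. With array weights the log2 fold change was 0.0357 for *PEX27* and -0.006486 for *CTA1*. A second quantile normalization gave 0.00301 for *CAT2*, and the replicate block gave -0.00371 for *OAF1* by either numbering. Leaving out each array gave -0.06414 to 0.000793 for *PEX5*, -0.01787 to 0.1475 for *PEX3*, -0.1264 to 0.07 for *PEX27*, -0.009805 to 0.08279 for *POX1* and -0.03161 to 0.0312 for *CAT2*. It gave -0.07453 to 0.003874 for *CRC1*, -0.04029 to 0.05425 for *OAF1*, -0.01082 to 0.1005 for *PIP2* and -0.09147 to 0.1585 for *CTA1*. The cause of these changes was not tested. Genes without a value in wild type replicate 3 keep 1 wild type value when another wild type array is left out.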
